A study of Mus musculus with 16 samples.

Results

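The DNA replication machinery was followed here as 48 mouse genes that encode the proteins of replication origins, of the replication fork and of deoxynucleotide supply. The genes were chosen by name and role, with earlier results of these data known but no measured value in the rule. They are 48 of 26699 genes with at least 1 read count in the series and 48 of 11831 genes tested, and all 48 were above the level filter (a mean over 100 counts in at least 1 group). The lowest count of any of them in any library was 457.

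Replication starts when the origin recognition complex marks a stretch of DNA and, with Cdc6 and Cdt1, loads the MCM2-7 helicase onto it in G1 phase, while geminin blocks Cdt1 and so prevents a second loading. In S phase Cdc45 and the GINS complex join the helicase and switch it on, and the polymerases copy both strands with the sliding clamp Pcna. Ribonucleotide reductase and thymidylate synthase supply the building blocks. Most of these genes are transcribed under E2F factors around the entry into S phase, whereas the genes of mitosis are switched on later in the cycle. Multipotent progenitors cycle far more than the haematopoietic stem cells from which they come.

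The series holds 16 bulk RNA-seq libraries of polyA RNA from multipotent progenitors of C57BL/6 mouse bone marrow, 4 for each pairing of a population with a genotype of Ebf1, the transcription factor that specifies B cells. MPP3 cells, which lean to myeloid fates, were sorted as Lin- Sca1+ cKit+ (LSK) cells that were CD150- and CD48+, and MPP4 cells, which lean to lymphoid fates, by the same gate with Flt3+ added. As given here the MPP3 gate names no Flt3 criterion, whereas the study lists MPP3 as Flt3- in the public data it used. The WT mice are labelled Ebf1fl/fl Tie2Cre+/+, aged 12, 11, 12 and 11 weeks (mice 1 and 2 female, 3 and 4 male), and the KO mice Ebf1fl/fl Tie2Cre +/cre, aged 10, 9, 11 and 11 weeks (mice 1 and 2 male, 3 and 4 female). By those labels both genotypes carry the floxed Ebf1 alleles and only the KO mice carry Cre, driven by the Tie2 (Tek) promoter in endothelium and blood cells, whereas the design text of the series names controls with wild-type Ebf1 and Tie2Cre, and the study's methods name littermates of either kind as controls for this strain. A number stands for 1 mouse within a genotype: the MPP3 and MPP4 libraries of the same genotype and number share sex and age, and over all genes they deviated together.

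Library totals ran from 24823708 to 48703193 counts. Flt3, which the MPP4 gate selects, was lower in MPP3 (log2 -2.13 in WT and -2.03 in KO), and Slamf1 (CD150) was near 0 in both populations. Neutrophil granule genes summed to 4565 to 13302 CPM (counts per 1000000 counts of the TMM-scaled library) in MPP3 and to 1487 to 2836 CPM in MPP4, mast cell and basophil genes to 167 to 380 CPM in MPP3 and to 19.1 to 35.8 CPM in MPP4, with Cma1 and Gzmb at 0 in every MPP4 library. Between the genotypes, the 5 gate genes tested all had an unadjusted edgeR p under 0.05 in MPP4 (12.8% of all genes). Of them 2 were higher and 3 lower in KO, and 1 was called lower (edgeR FDR = 0.056, beside 0.0169% of all genes). The gate genes summed to 3299 to 3548 CPM in MPP4 KO and 3698 to 4107 CPM in MPP4 WT. In MPP3, 2 of the 5 had such a p (10.5% of all genes) and none was called. The part of this in the comparisons below was not tested. Whole-gene Ebf1 counts were 98 to 263 in the MPP4 libraries labelled WT and 488 to 928 in those labelled KO, against the direction of the label, and 5 to 91 and 6 to 84 in MPP3. Of 6 plasma cell genes and 3 B progenitor genes tested (Ebf1 among the latter), edgeR called none between the genotypes, and their values were mixed. The plasma cell genes had a median log2 fold change of KO over WT of -2.14 in MPP3, where 4 of 6 had an unadjusted p under 0.05, and of -0.39 in MPP4, where 1 had. DESeq2 called 3 of these 9 genes lower in MPP3 KO (Mzb1, Ighm and Cd79a, at an adjusted p of 0.0185, 0.0205 and 0.0657) and none in MPP4, where its adjusted p for Mzb1 and Cd79a was not computed. The summed B progenitor genes were at 69 to 84.6 CPM in MPP3 KO and 76.3 to 84 CPM in MPP3 WT, and at 101 to 113 CPM in MPP4 KO and 80 to 104 CPM in MPP4 WT. For 2 genes chosen after their values were seen, the groups did not overlap, with KO lower. Cd79a, an Ebf1 target that encodes a B cell receptor component, was at 1.74 to 3.46 CPM in MPP3 WT and 0.0261 to 0.661 CPM in MPP3 KO, and at 1.58 to 7.28 CPM in MPP4 WT and 0 to 0.96 CPM in MPP4 KO. Igkc, the kappa light chain, was at 67.4 to 380 CPM in MPP3 WT and 0 to 60.9 CPM in MPP3 KO, and at 1.08 to 17.3 CPM in MPP4 WT and 0 to 0.221 CPM in MPP4 KO. Whole-gene counts can include exons outside the deleted part and so do not check the deletion, and WT and KO are used below as the names on the labels.

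The promoters of the replication genes were searched for short sequence words. RefSeq promoter windows (GRCm38.p6, 250 bases before to 50 after a transcription start) were found for 39 of the 48 genes and were searched on both strands for the E2F-type words TTTCCCGC, TTTCGCGC, TTTGCCGC and TTTGGCGC. Of the 39 genes, 15 (38.5%) held such a word, against 4.91% of the 8933 tested genes with a window and 2.6% of all 27025 genes with a window. Mcm6 had 3 matches, at 110, 106 and 47 bases before the start, Mcm5 had 2 at 153 and 149 bases before it, and Pola1 had 1 at 138 bases before it. The 250 bases before the start of these 3 are shown 5′ to 3′ with the E2F-type words in capitals, and neighbouring words that overlap appear as 1 run. The promoter of Cdk1, the kinase of mitotic entry, is shown beside them with the CHR-type words of mitosis genes in capitals instead (TTTGAA or TTCGAA on either strand).
Mcm6, chr1:128359706-128359955, minus strand: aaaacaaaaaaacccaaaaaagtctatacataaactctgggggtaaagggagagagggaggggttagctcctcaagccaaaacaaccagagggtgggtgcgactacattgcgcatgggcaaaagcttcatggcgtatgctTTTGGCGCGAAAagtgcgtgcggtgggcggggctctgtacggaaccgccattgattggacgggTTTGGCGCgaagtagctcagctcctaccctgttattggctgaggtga
Mcm5, chr8:75109259-75109508, plus strand: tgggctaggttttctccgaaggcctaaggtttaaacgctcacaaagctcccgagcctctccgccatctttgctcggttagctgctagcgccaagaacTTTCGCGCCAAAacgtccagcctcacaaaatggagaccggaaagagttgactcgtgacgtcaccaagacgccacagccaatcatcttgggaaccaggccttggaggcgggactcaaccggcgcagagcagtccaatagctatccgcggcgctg
Pola1, chrX:93632156-93632405, minus strand: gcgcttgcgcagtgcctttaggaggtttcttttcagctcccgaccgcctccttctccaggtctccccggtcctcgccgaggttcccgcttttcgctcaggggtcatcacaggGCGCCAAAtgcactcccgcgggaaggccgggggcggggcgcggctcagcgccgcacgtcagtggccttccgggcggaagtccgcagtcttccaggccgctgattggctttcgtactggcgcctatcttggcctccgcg
Cdk1, chr10:69352913-69353162, minus strand: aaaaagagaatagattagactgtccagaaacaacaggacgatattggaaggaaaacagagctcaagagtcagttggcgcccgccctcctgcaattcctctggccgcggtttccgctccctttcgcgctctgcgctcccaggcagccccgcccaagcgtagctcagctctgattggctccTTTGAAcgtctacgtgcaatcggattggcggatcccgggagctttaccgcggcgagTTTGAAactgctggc

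Of 13 mitosis genes with a window, 10 (76.9%) held a CHR-type word and 1 (7.69%), Cdk1, held an E2F-type word. The CHR-type word was found in 7 of the 39 replication genes (17.9%), against 16.7% of tested genes and 21.7% of all genes with a window. A CCAAT box was present in 24 of the 39 replication genes (61.5%), 12 of the 13 mitosis genes (92.3%), 43.2% of tested genes and 41.1% of all genes with a window. The other replication genes, 67 accessory factors and regulators listed apart from the 48, held an E2F-type word in 18 of 54 (33.3%). A match is a description of the letters in the window and was not tested as a binding site.

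**Figure D1:**
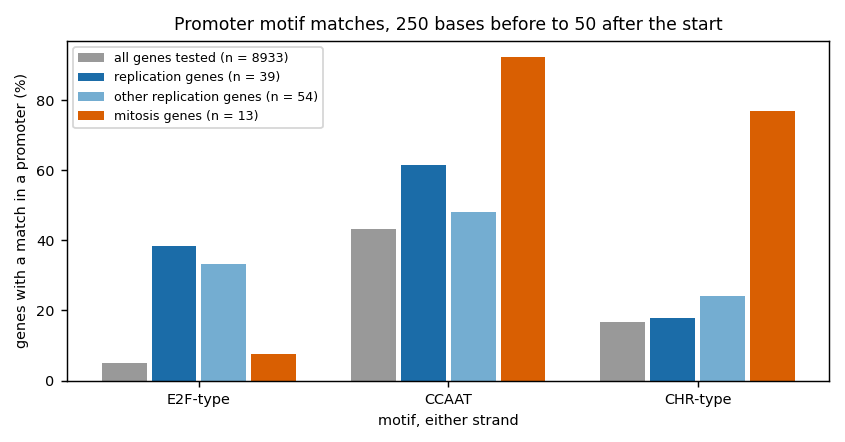
Bars give the percentage of genes with at least 1 match to each word on either strand of a RefSeq promoter window, over the genes that have such a window: 8933 of all tested genes, 39 of the 48 replication genes, 54 of the other replication genes and 13 of the mitosis genes. The E2F-type bar is highest in the replication genes (38.5%) and the CHR-type bar in the mitosis genes (76.9%).

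Levels differed between the genes far more than between the groups. Per kilobase of exon, the mean over the 4 groups ran from 5.40 CPM for Orc1, the largest subunit of the origin recognition complex, to 246 CPM for Mcm6. The 6 helicase subunits stood between 66.5 CPM per kb (Mcm2) and 246 CPM per kb (Mcm6), with Mcm3 at 197, although they form a complex with 1 copy of each. Polymerase subunits spanned a wider range: the catalytic subunit Pole stood at 6.21 CPM per kb and the small delta subunit Pold2 at 131. Pcna, the sliding clamp, stood at 146 CPM per kb. Exon length comes from the union of annotated exons, so a gene with long unused exons would read low on this scale. Over all 16 libraries no member varied by more than 1.88-fold between its lowest and highest library (Chaf1a), and Pcna varied by 1.17-fold.

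**Figure D2:**
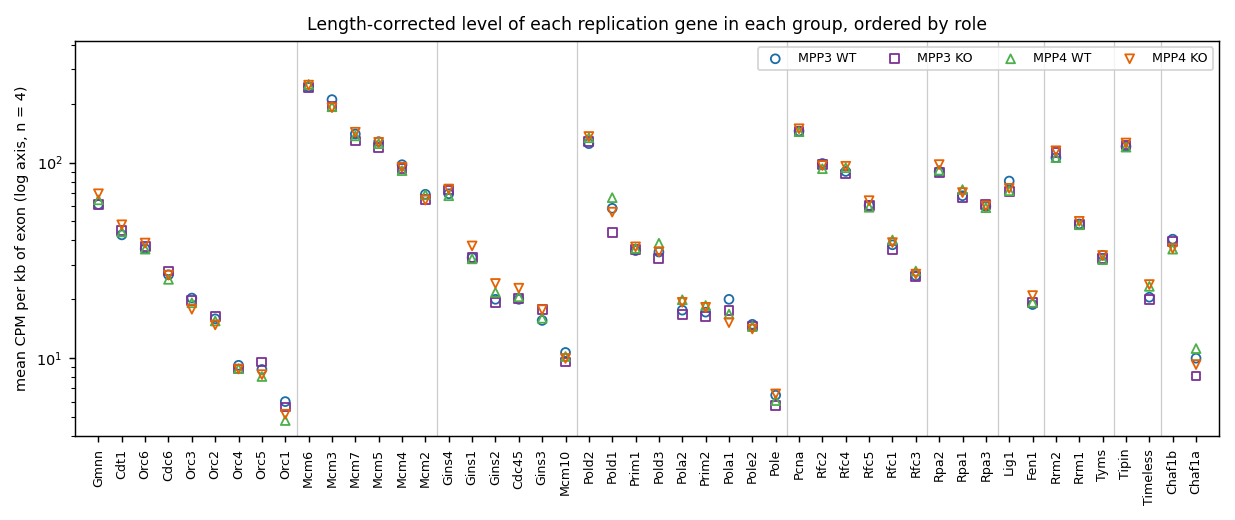
Each column is a replication gene, ordered by role and then by level, and each symbol is the mean of 4 libraries of a group in CPM per kb of exon on a log axis. The 4 symbols of a gene lie close together while the genes span 5.40 to 246 CPM per kb.

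The first comparison asked whether MPP3 and MPP4 of WT mice differ in replication genes. Without a block on the mouse, none of the 48 passed the threshold (edgeR quasi-likelihood test, Benjamini-Hochberg FDR under 0.1 over all 11831 genes). Of all tested genes 15.1% did. The fit with the mouse as a block is given below. DESeq2 on the same counts also called none of the 48, beside 1960 of 11804 genes. The smallest member edgeR FDR was 0.132, and 5 members had an unadjusted p under 0.05 against 22.1% of all genes. MPP3 was above MPP4 in all 4 mice for 7 members and below it in all 4 for 8, against 17.2% and 17.9% of all genes. Log2 fold changes of MPP3 over MPP4 ran from -0.18 to 0.32 with a median of 0.01 (28 positive, 20 negative), beside a median of 0.00 over all genes. The 95% interval of the fold lay within 1.5-fold in 47 of the 48 genes, the exception being Orc1. In a bulk sample, fewer cells of a type and less RNA per cell cannot be told apart, so these values describe the mean of the sorted cells.

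No origin licensing gene was called between the WT populations. Orc1 had 25.5, 20.0, 21.2 and 16.9 CPM in MPP3 of mice 1 to 4 and 17.3, 15.5, 17.4 and 16.6 CPM in MPP4. It was higher in MPP3 of 4 of 4 mice, with overlapping groups and a log2 difference of 0.32 ± 0.13 SE, edgeR FDR = 0.151. Cdc6, the ATPase that recruits Cdt1 and the helicase, had 140, 137, 148 and 134 CPM in MPP3 and 128, 146, 120 and 134 CPM in MPP4 (log2 difference 0.08 ± 0.07 SE, edgeR FDR = 0.595). Cdt1 itself had 142, 121, 125 and 148 CPM in MPP3 and 143, 135, 127 and 151 CPM in MPP4, a log2 difference of -0.05 ± 0.10 SE, edgeR FDR = 0.855. Its inhibitor geminin (Gmnn) had 80.3, 92.4, 91.9 and 93.3 CPM in MPP3 and 101, 85.8, 88.7 and 102 CPM in MPP4, with a log2 difference of -0.08 ± 0.08 SE, edgeR FDR = 0.642. The groups overlapped for each of these genes.

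No helicase gene was called in WT, and their intervals were narrow. Mcm2 was measured at 513, 480, 422 and 502 CPM in MPP3 WT and 454, 474, 452 and 525 CPM in MPP4 WT (log2 difference 0.01 ± 0.07 SE, edgeR FDR = 0.97). Mcm5 was measured at 537, 471, 488 and 542 CPM and 507, 508, 455 and 533 CPM in the same order (0.03 ± 0.08 SE, edgeR FDR = 0.906), and Mcm6 at 1038, 1116, 1134 and 1264 CPM and 1092, 1235, 1123 and 1227 CPM (-0.04 ± 0.06 SE, edgeR FDR = 0.803). For Mcm7 the values were 605, 601, 595 and 682 CPM and 607, 569, 575 and 680 CPM, a log2 difference of 0.03 ± 0.07 SE, edgeR FDR = 0.867. The 95% intervals of all 6 helicase subunits lay between -0.17 and 0.27 on the log2 scale. Of the factors that activate the helicase, Cdc45 had 78.3, 66, 60.6 and 75.3 CPM in MPP3 and 79.8, 69.4, 64.3 and 75.9 CPM in MPP4 (-0.05 ± 0.11 SE, edgeR FDR = 0.878). Gins1 gave 47.6, 38.1, 53.3 and 59.2 CPM and 49.5, 41.2, 51.0 and 53.4 CPM (0.02 ± 0.13 SE, edgeR FDR = 0.953), and Gins2 86.2, 77.7, 76.5 and 86.6 CPM and 89.6, 79.5, 85.9 and 100 CPM (-0.12 ± 0.10 SE, edgeR FDR = 0.563). Gins2 and Cdc45 were each lower in MPP3 of 4 of 4 mice, in overlapping groups.

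Among the polymerases, Pola1 and Pola2, the catalytic and the second subunit of the polymerase alpha complex that lays down primers, had estimates of opposite sign. Pola1 had 179, 168, 177 and 181 CPM in MPP3 WT and 155, 168, 147 and 123 CPM in MPP4 WT, a log2 difference of 0.25 ± 0.10 SE, edgeR FDR = 0.136. Pola2 had 164, 142, 132 and 146 CPM in MPP3 WT and 168, 162, 164 and 167 CPM in MPP4 WT, a log2 difference of -0.18 ± 0.07 SE, edgeR FDR = 0.132, and was lower in MPP3 of 4 of 4 mice. Pold1, the catalytic subunit of the lagging-strand polymerase delta, had 329, 322, 213 and 271 CPM in MPP3 and 325, 309, 305 and 347 CPM in MPP4 (-0.18 ± 0.12 SE, edgeR FDR = 0.436). Within MPP3 mouse 3 was the lowest, at 213 CPM, and mice 1 and 2 were the highest. Pole, the catalytic subunit of the leading-strand polymerase epsilon, had 77.9, 69.0, 69.5 and 72.3 CPM and 72.3, 69.9, 64.4 and 64.5 CPM (0.09 ± 0.08 SE, edgeR FDR = 0.579).

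The remaining fork genes gave no call in WT either in the fit without a block. The blocked fit, given below, called some of them. Pcna had 325, 331, 369 and 369 CPM in MPP3 and 334, 331, 357 and 361 CPM in MPP4 (0.01 ± 0.06 SE, edgeR FDR = 0.941), and Rfc3, a subunit of the loader that opens the clamp, 91.4, 84.5, 106 and 99.5 CPM and 99.1, 101, 102 and 101 CPM (-0.08 ± 0.08 SE, edgeR FDR = 0.654). Rpa1, the large subunit of the protein that coats single-stranded DNA, had 390, 355, 374 and 392 CPM and 424, 396, 392 and 412 CPM (-0.10 ± 0.05 SE, edgeR FDR = 0.244). Fen1, the nuclease that trims Okazaki fragments, had 48.1, 42.5, 43.4 and 48.4 CPM and 50.7, 47.3, 42.6 and 46.4 CPM (-0.03 ± 0.09 SE, edgeR FDR = 0.895). None of these 4 genes passed the test without a block, and their groups overlapped. Lig1, the ligase that joins the fragments, had 338, 323, 332 and 381 CPM and 332, 304, 271 and 320 CPM and was higher in MPP3 of 4 of 4 mice (0.16 ± 0.09 SE, edgeR FDR = 0.297). Rrm2, the regulated subunit of ribonucleotide reductase, had 329, 284, 278 and 283 CPM and 327, 284, 266 and 294 CPM (0.00 ± 0.08 SE, edgeR FDR = 0.991). Tyms, thymidylate synthase, had 220, 210, 194 and 193 CPM and 215, 201, 191 and 170 CPM (0.07 ± 0.09 SE, edgeR FDR = 0.721). The populations overlapped for Lig1, Rrm2 and Tyms. Timeless, which holds the fork together with Tipin, had 126, 114, 134 and 127 CPM and 148, 141, 126 and 155 CPM (-0.18 ± 0.08 SE, edgeR FDR = 0.203), and Chaf1a, the large subunit of the histone chaperone CAF-1, 96.4, 97.2, 67.6 and 92.8 CPM and 87.6, 90.4, 105 and 114 CPM (-0.16 ± 0.14 SE, edgeR FDR = 0.591).

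With the mouse as a block, which removes what the MPP3 and MPP4 libraries of a mouse share, 6 members were called in WT, 3 in each direction, beside 24.8% of all genes. Pola1 (log2 0.26 ± 0.08 SE, edgeR FDR = 0.0367), Lig1 (0.17 ± 0.05, edgeR FDR = 0.0415) and Chaf1b, the CAF-1 middle subunit (0.17 ± 0.05, edgeR FDR = 0.0333), were higher in MPP3. Pola2 (-0.18 ± 0.06, edgeR FDR = 0.0459), Pold3, a delta accessory subunit (-0.15 ± 0.05, edgeR FDR = 0.0602), and Rpa1 (-0.10 ± 0.04, edgeR FDR = 0.0923) were lower. Pola1 lies on the X chromosome.

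The same comparison in the libraries labelled KO called 4 members, all lower in MPP3, beside 9.18% of all genes called lower and 17.9% called in either direction. They were Gins2 of the GINS complex (GRCm38 chr8:120578633-120589304, minus strand), the fork protein Timeless (chr10:128232065-128252941, plus strand), and the polymerase subunits Pold1 (chr7:44532746-44548849, minus strand) and Pola2 (chr19:5940542-5964202, minus strand). Exons of Gins2 and Timeless overlap those of Gse1 and Gm26847 on the opposite strand. The median of the 48 log2 fold changes was -0.05 (13 positive, 35 negative, range -0.35 to 0.22), beside -0.01 over all genes, and 47 intervals lay within 1.5-fold, Pold1 being the exception. An unadjusted p under 0.05 was found for 10 members, against 25.4% of all genes. MPP3 was above MPP4 in all 4 mice for 2 members and below it in all 4 for 15, against 19.4% and 21.0% of all genes. In 5 members the 4 MPP3 libraries all lay under the 4 MPP4 libraries (Gmnn, Mcm7, Gins2, Pola2 and Rpa1), against 8.6% of all genes, and in none did they all lie above, against 8.6% of all genes for that direction.

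Gins2 had 65.1, 90.2, 77.4 and 82.0 CPM in MPP3 KO of mice 1 to 4 and 96.2, 112, 91.5 and 95.6 CPM in MPP4 KO. The highest MPP3 value, in mouse 2, was under the lowest MPP4 value, in mouse 3, and the log2 difference was -0.33 ± 0.10 SE, edgeR FDR = 0.0371. Timeless had 116, 137, 125 and 111 CPM in MPP3 and 155, 149, 147 and 131 CPM in MPP4, a log2 difference of -0.25 ± 0.08 SE, edgeR FDR = 0.0572. It was lower in MPP3 of 4 of 4 mice, although MPP3 of mouse 2 exceeded MPP4 of mouse 4. Pold1 had 193, 228, 213 and 219 CPM in MPP3 and 252, 300, 304 and 228 CPM in MPP4, a log2 difference of -0.35 ± 0.12 SE, edgeR FDR = 0.0686, with the groups touching at 228 CPM. Pola2 had 125, 138, 145 and 148 CPM in MPP3 and 154, 159, 171 and 157 CPM in MPP4, without overlap, a log2 difference of -0.20 ± 0.07 SE, edgeR FDR = 0.0737. Each of the 4 differences was under 1.5-fold in size at its estimate.

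The calls depended on single libraries. Without MPP3 KO of mouse 1, the lowest library for Gins2, no member was called beside 16.2% of all genes, and Gins2 came to an edgeR FDR of 0.112 to 0.130 when that library or MPP4 KO of mouse 2 was left out. Leaving out 1 of the 16 libraries at a time, Pola2 lost its call in 4 cases (MPP3 KO of mouse 1 or 2, MPP4 KO of mouse 2 or 3), Timeless in 5 (MPP3 KO of mouse 1 or 4, MPP4 KO of mouse 1, 2 or 3) and Pold1 in 5 (MPP3 KO of mouse 1, 3 or 4, MPP4 KO of mouse 2 or 3), at an edgeR FDR of 0.105 to 0.203. With 1 library left out, the log2 fold change ran from -0.40 to -0.25 for Gins2, -0.23 to -0.15 for Pola2, -0.42 to -0.29 for Pold1 and -0.31 to -0.21 for Timeless. With the mouse as a block, 9 members were called beside 28.3% of all genes: Orc5 and Pola1 higher, and Mcm7, Cdc45, Gins2, Pola2, Pold1, Rpa2 and Timeless lower.

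**Figure D3:**
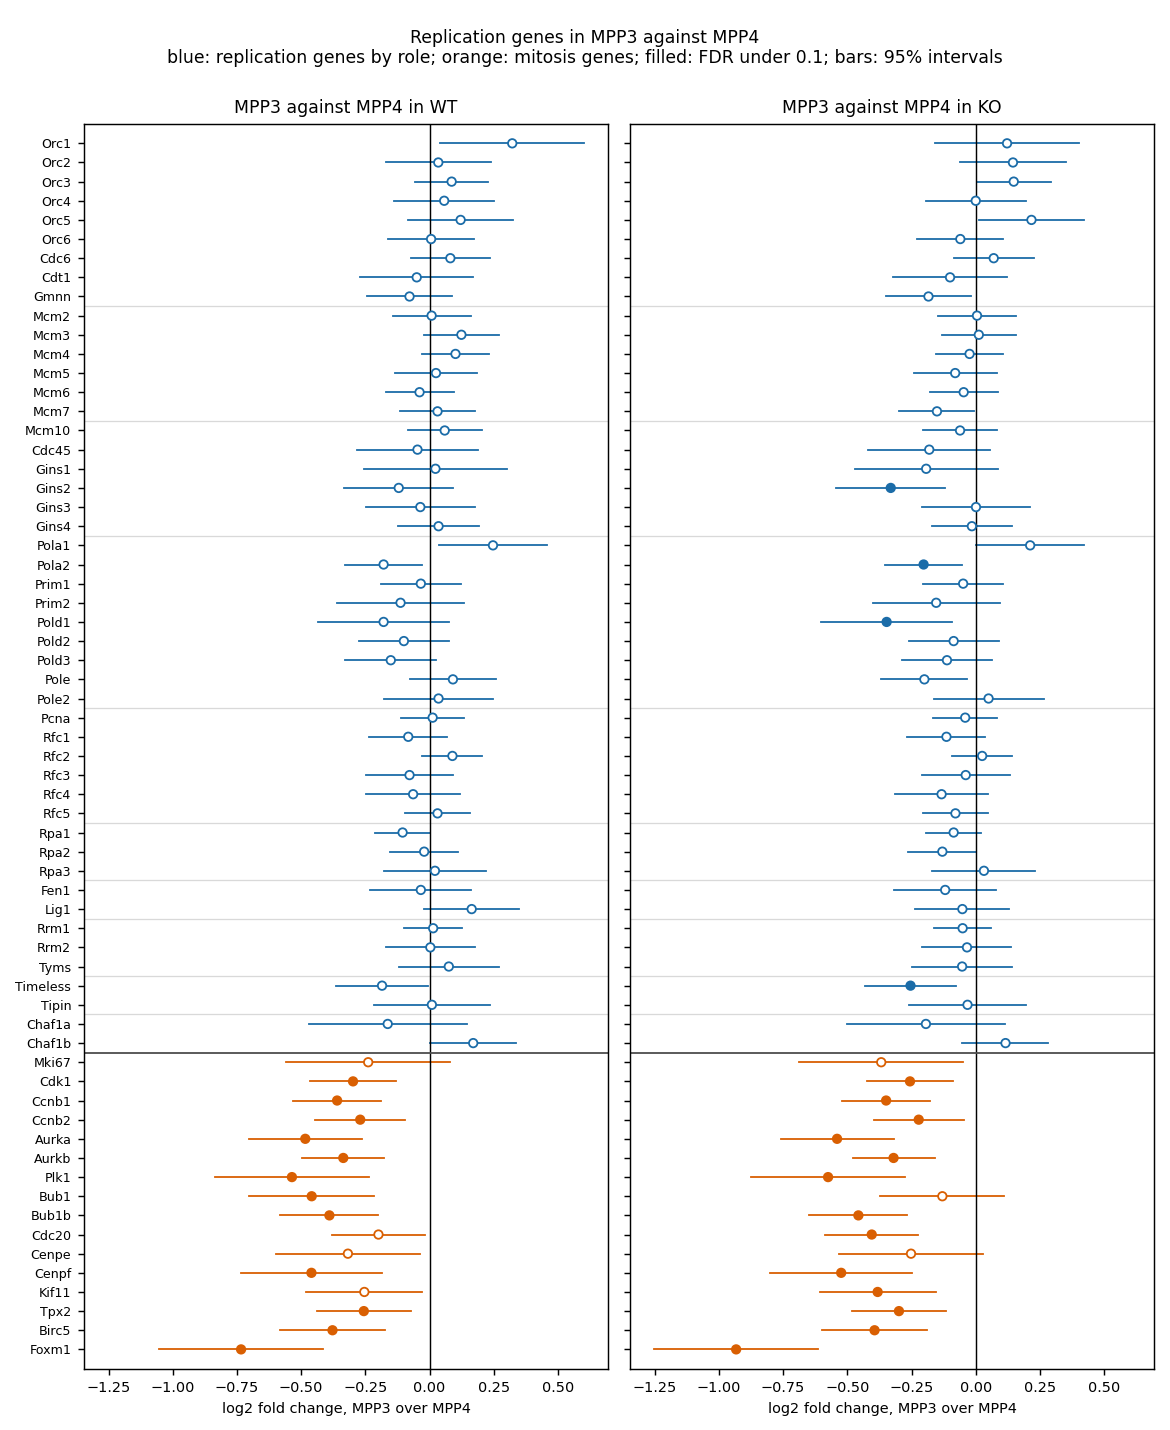
Points are log2 fold changes of MPP3 over MPP4 with 95% intervals, in WT (left) and KO (right), for the 48 replication genes by role (blue) and 16 mitosis genes (orange), and filled points have an edgeR FDR under 0.1. The replication genes scatter around 0 with 0 filled points in WT and 4 in KO, while all 16 mitosis genes lie left of 0 in both.

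Across the other roles the KO libraries gave small differences without calls in the fit without a block. The blocked fit also called Orc5, Pola1, Mcm7, Cdc45 and Rpa2, as given above. In origin licensing, Orc1 had 16.5, 23.3, 18.6 and 20.0 CPM in MPP3 and 19.5, 17.7, 16.9 and 17.9 CPM in MPP4 (0.12 ± 0.13 SE, edgeR FDR = 0.653). Cdc6 had 132, 147, 152 and 152 CPM and 135, 133, 135 and 154 CPM (0.07 ± 0.07 SE, edgeR FDR = 0.636), and Cdt1 117, 163, 138 and 147 CPM and 145, 177, 142 and 140 CPM (-0.10 ± 0.10 SE, edgeR FDR = 0.635). Gmnn had 95.1, 93.5, 85.3 and 83.4 CPM and 110, 96.1, 101 and 99.2 CPM, without overlap but short of the threshold (-0.18 ± 0.08 SE, edgeR FDR = 0.149). In the helicase, Mcm2 had 408, 469, 466 and 453 CPM and 440, 472, 458 and 419 CPM (0.01 ± 0.07 SE, edgeR FDR = 0.981) and Mcm5 413, 512, 503 and 492 CPM and 480, 548, 518 and 483 CPM (-0.08 ± 0.08 SE, edgeR FDR = 0.593). Mcm6 had 1080, 1197, 1098 and 1116 CPM and 1183, 1184, 1185 and 1087 CPM (-0.05 ± 0.06 SE, edgeR FDR = 0.725). Only Mcm7 of the helicase separated the populations, at 582, 602, 560 and 541 CPM in MPP3 and 637, 694, 605 and 602 CPM in MPP4 (-0.15 ± 0.07 SE, edgeR FDR = 0.177), with a blocked edgeR FDR of 0.0112.

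In MPP3 and MPP4 KO in turn, Cdc45 had 57.9, 75.3, 72.1 and 76.1 CPM and 72.4, 74.9, 78.5 and 93.3 CPM (-0.18 ± 0.11 SE, edgeR FDR = 0.356), and Gins1 52.9, 46.5, 51.0 and 48.6 CPM and 63.3, 60.5, 45.0 and 58.7 CPM (-0.19 ± 0.13 SE, edgeR FDR = 0.417). Pola1 had 156, 145, 152 and 166 CPM and 146, 110, 129 and 150 CPM and was higher in MPP3 of 4 of 4 mice (0.21 ± 0.10 SE, edgeR FDR = 0.191). Pole had 57.2, 71.0, 63.2 and 63.8 CPM and 79.3, 67.8, 71.3 and 74.8 CPM (-0.20 ± 0.08 SE, edgeR FDR = 0.114). Pcna had 356, 340, 334 and 355 CPM and 379, 356, 347 and 343 CPM (-0.04 ± 0.06 SE, edgeR FDR = 0.744), and Rfc3 89.8, 97.4, 92.7 and 97.5 CPM and 103, 95.8, 83.5 and 106 CPM (-0.04 ± 0.08 SE, edgeR FDR = 0.835). Both genes overlapped between the populations. Rpa1 had 358, 363, 375 and 382 CPM and 386, 388, 383 and 413 CPM without overlap (-0.09 ± 0.05 SE, edgeR FDR = 0.332). Fen1 had 41.6, 43.5, 48.5 and 52.6 CPM and 46.4, 52.2, 49.1 and 54.6 CPM (-0.12 ± 0.09 SE, edgeR FDR = 0.493), and Lig1 310, 296, 277 and 335 CPM and 329, 316, 269 and 348 CPM (-0.05 ± 0.09 SE, edgeR FDR = 0.789). Both Okazaki genes overlapped between the populations. Rrm2 had 296, 308, 303 and 342 CPM and 321, 330, 279 and 349 CPM (-0.03 ± 0.08 SE, edgeR FDR = 0.863), and Tyms 197, 171, 188 and 230 CPM and 212, 189, 192 and 223 CPM (-0.05 ± 0.09 SE, edgeR FDR = 0.8). Chaf1a had 66.6, 69.7, 71.9 and 79.0 CPM and 60.5, 99.2, 93.4 and 75.4 CPM, the widest MPP4 KO spread relative to its mean among the genes given in full (-0.19 ± 0.14 SE, edgeR FDR = 0.472).

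Mitosis genes were measured in the same libraries. Of 16 mitosis genes, 12 were called lower in MPP3 in WT (median log2 fold change -0.35), beside 986 of 11831 genes. In KO 13 were called lower (median -0.38), beside 9.18% of all genes, and all 16 estimates were negative in both. Foxm1, the transcription factor of the G2/M genes, was at 11.5 CPM in MPP3 WT and 19.1 CPM in MPP4 WT (log2 -0.73 ± 0.15 SE, edgeR FDR = 0.00333). Plk1, the kinase of mitotic entry and spindle assembly, was at 90.3 and 131 CPM (-0.54 ± 0.14, edgeR FDR = 0.0194). Within each of the 8 mice the mean log2 level of the mitosis genes differed by -0.52 to -0.28 (MPP3 minus MPP4), while that of the 48 replication genes differed by -0.11 to 0.03. Neutrophil and mast cell genes were higher in MPP3 in the same libraries, as given above. Of 4 stem cell markers, 2 were called higher in MPP3 in WT (median log2 fold change 0.47) and 4 in KO (median 0.78), and of 5 erythroid markers tested, 2 and 3 (medians 0.97 and 1.31). Of 6 plasma cell genes, MPP3 of WT had 2 calls above and 2 below MPP4 (median -0.17), and MPP3 of KO 1 above and 3 below (median -1.29), at summed levels of 461 to 1552 CPM in MPP3 WT, 1354 to 1458 CPM in MPP4 WT, 308 to 648 CPM in MPP3 KO and 1291 to 1669 CPM in MPP4 KO. Of 3 B progenitor genes tested, 0 were called in WT (median -0.54) and 1 was called lower in KO (median -0.21). Over all genes 15.1% were called in WT and 17.9% in KO in either direction, and these marker lists are short. The part of these cell types in the differences was not tested.

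**Figure D4:**
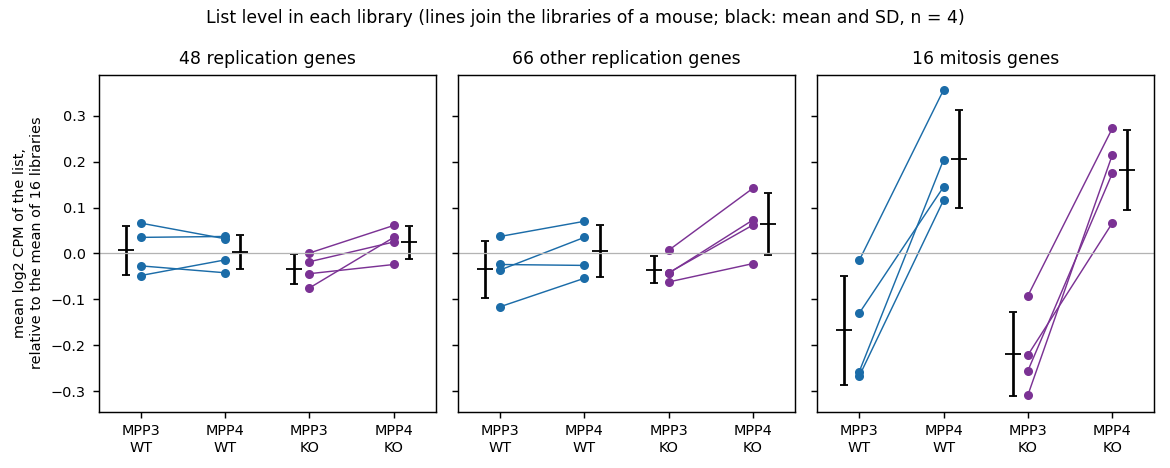
Each point is a library, at the mean log2 CPM of a gene list relative to the mean over 16 libraries, with lines joining the MPP3 and MPP4 libraries of a mouse and black marks for the mean and SD of 4 libraries. For the 48 replication genes the lines move by at most 0.11, upward from MPP3 to MPP4 in all 4 KO mice, and they rise from MPP3 to MPP4 in all 8 mice for the mitosis genes.

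Of the other replication genes, 66 of 67 were tested, and 1 was called higher and 5 lower in MPP3 in WT, 2 higher and 8 lower in KO. Called genes were thus no more frequent in this list than among all genes, of which 15.1% and 17.9% were called. Samhd1, which degrades deoxynucleotides, was the gene called higher in WT, at 66.5 CPM in MPP3 and 54.9 CPM in MPP4 (log2 0.28 ± 0.10 SE, edgeR FDR = 0.0864). The 5 lower genes were Top2a, the topoisomerase that untangles copied DNA (-0.38 ± 0.07, edgeR FDR = 0.0014), Ccna2, cyclin A (-0.42 ± 0.09, edgeR FDR = 0.00367), the deoxycytidine kinase Dck (-0.22 ± 0.07, edgeR FDR = 0.0448), E2f2 (-0.50 ± 0.16, edgeR FDR = 0.0465) and the Pcna partner Pclaf (-0.29 ± 0.10, edgeR FDR = 0.0718). The 2 called higher in KO were Samhd1 and Rbl2, a pocket protein that restrains E2F. The 8 called lower in KO were the same 5 genes with Uhrf1, Chtf18 and Ticrr. The median log2 fold change over all 66 tested genes of this list was -0.03 in WT and -0.07 in KO.

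The next comparisons asked whether the replication genes differ between the libraries labelled KO and WT. In MPP3, no member passed the test between the libraries labelled KO and WT, where 0.0676% of all genes did (8 of 11831). The smallest member edgeR FDR was 0.214, 3 members had an unadjusted p under 0.05 against 10.5% of all genes, and the median log2 fold change was -0.03 (16 positive, 32 negative), beside 0.00 over all genes. The 95% intervals of 46 members lay within 1.5-fold, and those of Pold1 and Chaf1a reached further. In MPP4, again no member passed, where 0.0169% of all genes did (2 of 11831). The smallest member edgeR FDR was 0.404, none had an unadjusted p under 0.05 against 12.8% of all genes, and the median was 0.03 (31 positive, 17 negative), beside -0.01 over all genes. There the interval lay within 1.5-fold in all 48. DESeq2 called 1 member in MPP3 beside 1.82% of all genes and 0 in MPP4 beside 2.58%.

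Pold1 was the member that came nearest to a call. In MPP3 the KO values were 193, 228, 213 and 219 CPM and the WT values 329, 322, 213 and 271 CPM. All 4 KO libraries lay under WT mice 1, 2 and 4, and WT mouse 3 lay among the KO libraries. Its mean was 213 ± 15.0 CPM in KO and 284 ± 53.8 CPM in WT (SD, n = 4). The log2 fold change of KO over WT was -0.41 ± 0.12 SE, edgeR FDR = 0.214, and the DESeq2 Wald test on the same counts gave an adjusted p of 0.0549. Without WT mouse 3 of MPP3 the log2 fold change was -0.53 (edgeR FDR = 0.0555), in a fit that called 1.16% of all genes. In MPP4 the KO values (252, 300, 304 and 228 CPM) lay under the WT values (325, 309, 305 and 347 CPM) without overlap, at means of 271 ± 37.4 and 321 ± 19.1 CPM (SD, n = 4), and the log2 fold change was -0.25 ± 0.12 SE, edgeR FDR = 0.404. It was the only member of the 48 without overlap in MPP4, against 7.27% of all genes in either direction.

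Chaf1a had negative estimates without a call, with log2 fold changes of KO over WT of -0.30 ± 0.14 SE, edgeR FDR = 0.489 in MPP3 and -0.27 ± 0.14 SE, edgeR FDR = 0.451 in MPP4. Its means were 71.8 ± 5.26 CPM in KO and 88.5 ± 14.1 CPM in WT MPP3 (SD, n = 4), and 82.1 ± 17.6 and 99.0 ± 12.2 CPM in MPP4. Pole, at 63.8 ± 5.63 CPM in KO and 72.2 ± 4.09 CPM in WT MPP3, gave -0.18 ± 0.08 SE, edgeR FDR = 0.446, and Mcm10, an initiation factor, gave -0.16 ± 0.07 SE, edgeR FDR = 0.43 without overlap of the groups. Mcm10 and Pola1 were the 2 members without overlap in MPP3, against 4.58% of all genes. Pola1 was at 155 ± 8.89 CPM in KO and 176 ± 5.77 CPM in WT MPP3 (SD, n = 4), a log2 fold change of -0.18 ± 0.10 SE, edgeR FDR = 0.561.

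By role, the KO over WT medians in MPP3 and MPP4 were -0.09 and 0.00 for the helicase, 0.04 and 0.08 for origin licensing, 0.01 and 0.14 for helicase activation and -0.07 and -0.04 for the polymerases. All 6 helicase subunits had a negative estimate in MPP3, from -0.12 to -0.02, none of them called. The clamp and its loader had medians of -0.01 and 0.03, the single-strand binding genes -0.01 and 0.03, and nucleotide supply -0.01 and 0.07. Chromatin assembly (2 genes) had medians of -0.17 and -0.13, Okazaki maturation -0.07 and 0.08, and fork protection -0.005 and 0.05. In the other replication genes 0 of 66 were called in either population (medians -0.04 and 0.04), and of the 16 mitosis genes 0 were called (medians -0.03 and -0.05). Both genotype comparisons are of separate mice, and MPP3 and MPP4 of a mouse are not independent.

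**Figure D5:**
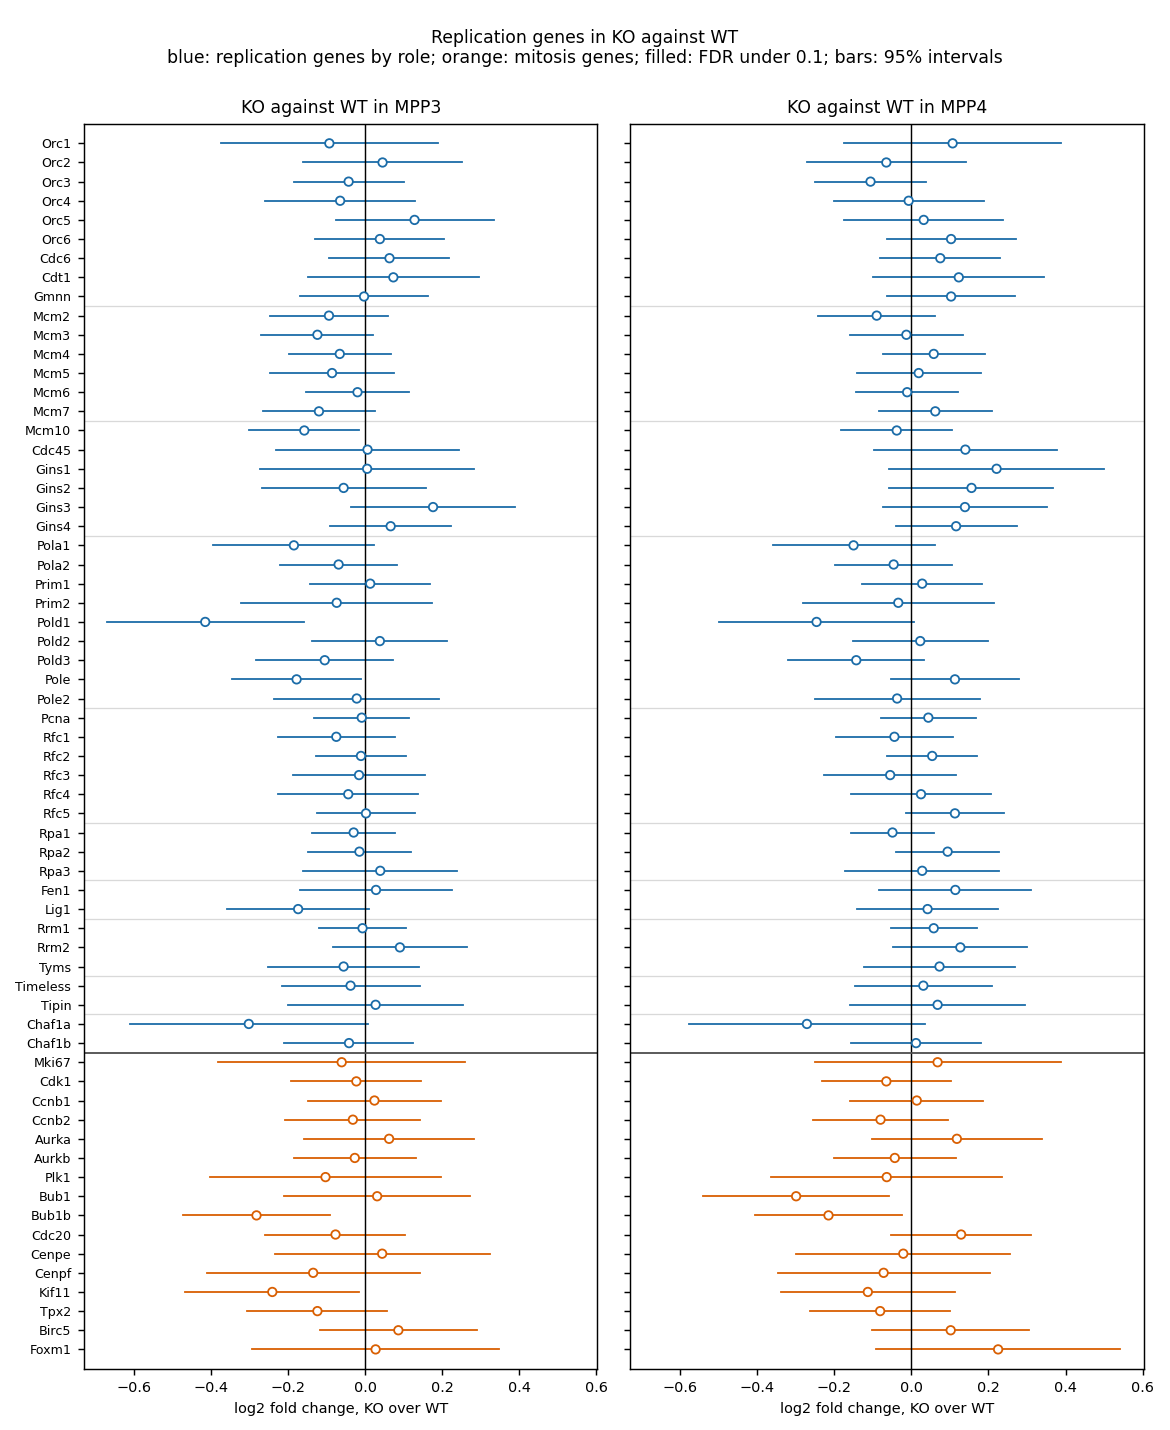
Points are log2 fold changes of KO over WT with 95% intervals in MPP3 (left) and MPP4 (right), for the 48 replication genes by role (blue) and 16 mitosis genes (orange). No point is filled, since none had an edgeR FDR under 0.1, and Pold1 in MPP3 lies farthest below 0.

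The last test asked whether the population difference itself differs between the genotypes. No member was called for the interaction, nor was any of the 11831 genes (0.0%), while DESeq2 called 8 of 11804 genes and none of the 48, and each member's edgeR FDR was 1.0. The median interaction was -0.05 (10 positive, 38 negative), beside 0.00 over all genes, and 1 member had an unadjusted p under 0.05 against 2.28% of all genes. Pole had the smallest p, with an interaction of -0.29 ± 0.11 SE, edgeR FDR = 1.0. Its MPP3 libraries lay above MPP4 in 3 of 4 WT mice and in 1 of 4 KO mice. Mcm7 (-0.18 ± 0.10 SE, edgeR FDR = 1.0) and Lig1 (-0.22 ± 0.12 SE, edgeR FDR = 1.0) came next. For the 4 genes called in KO, the interaction was -0.21 ± 0.14 SE, edgeR FDR = 1.0 for Gins2, -0.07 ± 0.12 SE, edgeR FDR = 1.0 for Timeless, -0.17 ± 0.17 SE, edgeR FDR = 1.0 for Pold1 and -0.02 ± 0.10 SE, edgeR FDR = 1.0 for Pola2, so that their calls in KO and not in WT were not shown to differ between the genotypes. With the mouse as a block, 0 members and 0.0169% of all genes were called.

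Variation between libraries was described with group means removed. On that scale, the correlation of a member's log2 level with the mean of the other members over the 16 libraries had a median of 0.33, was above 0.5 for 12 members and below 0 for 6. Rpa1 (0.86), Lig1 (0.77) and Cdc45 (0.74) followed the mean of the others most closely, and Rpa3 (-0.31), the primase subunit Prim1 (-0.19) and Chaf1a (-0.10) least. The mean of the members and the mean of the mitosis genes had a correlation of 0.72 on the same residuals. These are descriptions over libraries that share mice in pairs and share their scaling, and no test was made. As a share of all counts the 48 genes together took 1.02% to 1.15% of each library.

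For 18 of the 48 genes an exon overlaps an exon of another annotated gene, and the counting is not stated to use strand, so reads of the partners may not be told apart. They include Orc1, Mcm7, Cdc45, Gins2, Pole, Rpa1, Fen1, Lig1, Timeless and Chaf1a among the genes given in full.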

How the data were processed

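RNA of sorted MPP3 and MPP4 cells was sequenced as paired 100-base reads. Per the study's methods, the authors aligned reads to mm10 with STAR 2.7.3a in snakePipes 2.5.1 and obtained gene counts from featureCounts 2.0.0. The deposited table holds raw read counts of 47937 gene IDs in 16 libraries, with 0 sample columns unused. The annotation release and the strand setting are not given in the sources used here. The authors' normalised values and their fold change and p-value columns (DESeq2 1.28.1 in R 4.0.0) were not used. GENCODE M21 (GRCm38) gave symbols for 47310 IDs, and RefSeq gave promoter windows for 39 of the 48 members.

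Genes with a mean over 100 counts in at least 1 group, the study's filter, entered edgeR 4.0.16 under R 4.3.3 (TMM scaling, quasi-likelihood F test), as 1 fit of all 16 libraries with the 4 groups as terms. The SE is the size of the log2 fold change divided by the square root of F, and a gene is called at a Benjamini-Hochberg FDR under 0.1 over all 11831 genes. CPM are counts per 1000000 counts of the TMM-scaled library. Library totals were 24823708 to 48703193 counts and the lowest member count was 457. The parts of counting, mouse and library preparation in the spread were not separated. The test was checked on simulated counts with known changes.

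Values of every library are given for called members, for fixed members of each role, for the 3 members with the smallest interaction p and for those of highest and lowest level per kb. Members, lists and these rules were chosen with earlier results of these data known. Members beyond that rule (such as Chaf1b, Pold3, Orc5, Rpa2, Rpa3, Prim1 and Mcm10) were named after their values were seen. Alternatives were RLE scaling, DESeq2 1.42.0, all genes with at least 1 count, age or sex as a term, a block, only the 8 libraries of the genotype or population compared and each library left out. Leaving out both libraries of a mouse was added after seeing the data. The MPP3 and MPP4 libraries of a mouse deviated from their group means together (r 0.277 to 0.504 over genes, each above that with any other number of its genotype), so the number pairs them. Libraries of different genotypes share only a number (r -0.423 to 0.0198).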

Additional observations from a re-analysis of the deposited data

Results flagged for a closer look

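In 13 of 192 groups of 4 libraries (48 genes in 4 groups) 1 library stood apart from the other 3 by Dixon's 95% criterion, which chance meets in about 1 of 20 groups. Most were in MPP4 KO. In mouse 2 of that group, Orc3, an origin recognition subunit, was low at 96.3 CPM (others 112 to 113), Pold3 was low at 145 CPM (others 165 to 168) and Cdt1 was high at 177 CPM (others 140 to 145). MPP4 KO of mouse 4 was high for Cdc6 at 154 CPM (others 133 to 135) and low for Mcm6 at 1087 CPM (others 1183 to 1185). Mcm4 was low in MPP4 KO of mouse 3 at 321 CPM (others 344 to 348), and Pold2 in that of mouse 1 at 222 CPM (others 266 to 273).

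In MPP3 WT, mouse 4 was high for Mcm7 at 682 CPM (others 595 to 605) and for Rpa2, the middle RPA subunit, at 293 CPM (others 260 to 265). Mouse 1 was low there for Gmnn at 80.3 CPM (others 91.9 to 93.3) and high for Rrm2 at 329 CPM (others 278 to 284). Chaf1a was low in mouse 3 at 67.6 CPM (others 92.8 to 97.2). In MPP4 WT, Rfc2, a clamp loader subunit, was high in mouse 4 at 596 CPM (others 582 to 584).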

How the results depend on the processing

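Of the values recomputed under each alternative for 24 of the 48 members, 3639 kept their side of the threshold, 25 came past it, 32 lost it and none turned sign while called. The median log2 fold change over the members moved by less than 0.041, the SD of the members' mean log2 level between libraries of a group. With 1 library left out it ran from -0.016 to 0.032 in WT (MPP3 against MPP4), so that its sign was not fixed, and from -0.041 to -0.005 for KO against WT in MPP3. For MPP3 against MPP4 in WT, 0 members were called. There sex as a term gave 3, beside 2105 of 11831 genes, and leaving out 1 library gave 0 to 1, beside 1367 to 1805 genes. Leaving out both libraries of WT mouse 1, 2 or 3 or of KO mouse 2 gave 1, beside 1516, 1329, 1162 and 1756 genes. For the same comparison in KO, 4 members were called. Testing all genes with at least 1 count gave 1, beside 1861 of 26699 genes, and leaving out 1 library gave 0 to 5, beside 1696 to 2177 genes. Leaving out KO mouse 1 gave 0, beside 1544 of 11827 genes, and KO mouse 3 gave 1, beside 1525 of 11848 genes. Pola2 lost its call in the fit of only the 8 KO libraries (edgeR FDR = 0.115) and in 5 of the 8 fits without both libraries of a mouse (WT mouse 2 or 4, KO mouse 1, 2 or 3), Pold1 in 3 (KO mouse 1, 2 or 3), Timeless in 3 (KO mouse 1, 3 or 4) and Gins2 in 1 (KO mouse 1). For KO against WT in MPP3, 0 members were called, and DESeq2 gave 1, beside 215 of 11804 genes. Leaving out 1 library gave 0 to 1, beside 1 to 137 genes, and leaving out WT mouse 3 gave 1, beside 45 of 11776 genes. In MPP4 and for the interaction no alternative called a member. The cause of these changes was not tested, beyond the larger number of genes tested and the fewer libraries.

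With the mouse as a block, pairing MPP3 and MPP4, 6 members were called in WT and 9 in KO, and over all genes 2930 and 3346 against 1790 and 2116 without it. A block on the number that WT and KO share without pairing gave 29 genes in MPP3 and 23 in MPP4, against 8 and 2. DESeq2 called 215 and 305 genes in those comparisons, sex as a term 58 and 183, age as a term 1 and 1, and only the 8 libraries of a population 1 and 21.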
